A study of Homo sapiens with 9 samples.

Results

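TXNIP, ARRDC2, ARRDC3 and ARRDC4 are human members of the alpha-arrestin family, and they are described here with the transcription factor subunits MLXIP (MondoA) and MLX and with 3 genes of glucose uptake, SLC2A1, SLC2A3 and HK2. All probe sets that name 1 of these 9 genes were taken, which gave 24 of the 54675 probe sets on the array. A filter on dim signals kept 20 of the 24 (26480 probe sets in all), namely all 6 arrestin probe sets and 14 of the other genes. The genes were chosen from the measured values: the signals of TXNIP, ARRDC3 and ARRDC4 were lower at 48 h than at 24 h, so that difference is given below as a description with no test. The other 6 genes were added as partners or as uptake genes, with earlier results of these data known.

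The RNA came from SK-N-AS, an established human neuroblastoma cell line, in 3 series with arrays at 0, 24 and 48 h. The first series received the RE-EX1 construct, which over-expresses full-length NRSF (also called REST, a transcriptional repressor of neuronal genes). The second received the HZ4 construct, which over-expresses a truncated NRSF variant, and the third was left untreated; the arrays of the series are called full-length, truncated and untreated arrays below. Each series and time had 1 array, 9 in all, and all cells were grown in a serum-containing DMEM medium with glutamine. The labels give no glucose concentration, no medium change and no assignment of the arrays to a batch, and no glucose uptake was measured. Each array had the same trimmed mean signal by scaling, a median signal between 30.9 and 42.7, and 21.9% to 26.9% of probe sets at or below the floor of 8.27 used here. The truncated NRSF array at 24 h stood apart, with the highest median and the lowest typical correlation with the others (r = 0.89 against 0.90 to 0.92). Calls of the 9 genes that are lost without it are therefore given both ways. Calls of genes outside the 9 are given from all 9 arrays only.

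MondoA and MLX bind DNA together. Glucose 6-phosphate, the product of hexokinases such as HK2, brings the MondoA and MLX complex to the nucleus, where it activates TXNIP and ARRDC4 through paired E-box-like sites known as carbohydrate response elements. TXNIP and ARRDC4 in turn restrain glucose uptake, in part by moving glucose transporters such as GLUT1 (encoded by SLC2A1) from the cell surface, so the genes form a feedback loop. TXNIP also binds thioredoxin, and the alpha-arrestins recruit ubiquitin ligases of the NEDD4 family to membrane proteins.

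The promoter windows of these genes are shown first because MondoA and MLX act through E-box-like letters. RefSeq windows on GRCh38.p14, from 250 bases before to 50 after each annotated start, were found for 8 of the 9 genes (12 windows), all but SLC2A3. Motifs were searched on both strands. In the lines below, lower case letters are context and capitals mark the motif: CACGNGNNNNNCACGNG for TXNIP, and CACGTG for ARRDC4, MLX and HK2. TXNIP lies on chromosome 1 (145992435 to 145996579, minus strand), and its line covers chr1:145996580-145996829, the 250 bases upstream of the gene. ARRDC4 lies on chromosome 15 (97960703 to 97973833, plus strand), and its line covers the 250 upstream bases, chr15:97960453-97960702. MLX lies on chromosome 17 (42567100 to 42573203, plus strand), and its line covers chr17:42567010-42567095, upstream of the gene. The HK2 line, chr2:74834936-74835066 on the plus strand, is upstream of the second annotated start and inside the gene's span (74834127 to 74893359).
TXNIP: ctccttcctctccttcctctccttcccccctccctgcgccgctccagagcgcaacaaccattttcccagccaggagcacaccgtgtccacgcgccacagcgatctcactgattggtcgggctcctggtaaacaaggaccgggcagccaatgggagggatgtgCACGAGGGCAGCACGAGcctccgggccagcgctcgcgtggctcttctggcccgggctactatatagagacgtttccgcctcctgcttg
ARRDC4: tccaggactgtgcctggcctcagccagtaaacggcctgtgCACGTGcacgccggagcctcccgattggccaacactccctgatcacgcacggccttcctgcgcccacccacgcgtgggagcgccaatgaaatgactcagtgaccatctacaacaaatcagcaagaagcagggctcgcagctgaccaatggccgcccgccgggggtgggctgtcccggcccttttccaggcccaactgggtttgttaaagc
MLX: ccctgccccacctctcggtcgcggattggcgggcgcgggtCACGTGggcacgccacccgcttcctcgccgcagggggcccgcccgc
HK2: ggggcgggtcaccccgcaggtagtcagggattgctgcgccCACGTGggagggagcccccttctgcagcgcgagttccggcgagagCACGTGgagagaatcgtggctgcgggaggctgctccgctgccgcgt

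The TXNIP window held 1 pair of CACGNG sites 5 bases apart, which starts 88 bases before the annotated start. The other windows of these genes, that of ARRDC4 included, held no such pair. Of 35116 promoter windows of the same length in the table, 20 held such a pair (0.057%). Only pairs with both sites in the same direction, as in TXNIP, were searched for, so this is not the share of all paired sites. CACGTG occurred in 7.26% of all windows: its first base was 210 bases before the start in ARRDC4, 50 before it in MLX, and 194 and 149 before the second start in HK2. The windows of TXNIP, ARRDC2, ARRDC3, MLXIP and SLC2A1 held no CACGTG. The looser CACGNG, which also matches every CACGTG, occurred in 30.5% of all windows and in a window of TXNIP, ARRDC2, ARRDC3, ARRDC4, MLX and HK2. These are letter matches in a short window, and no binding was measured.

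TXNIP, the thioredoxin-interacting protein, was highest at 24 h in all 3 series on each of its 3 probe sets. On the brightest, 201009_s_at, the signal at 0, 24 and 48 h was 1987, 5744 and 1819 on full-length arrays, 1779, 5533 and 1527 on truncated arrays, and 2619, 4086 and 1947 on untreated arrays. The 3 arrays at 24 h lay above the other 6, as on 5.32% of all probe sets. TXNIP was picked because its 48 h signals were below its 24 h signals, so that part of the order follows from the choice. The share over all probe sets is therefore no measure of how rare the order is here. The untreated 0 h array was the highest of the 3 at 0 h. On 201008_s_at the signals were 995, 2972 and 1456 on full-length arrays, 999, 4166 and 1189.5 on truncated arrays, and 1573, 3857 and 1165 on untreated arrays. On 201010_s_at they were 1527, 4187 and 1609 on full-length arrays, 1491, 4723 and 1717 on truncated arrays, and 2410.2, 3783 and 2285 on untreated arrays. Each probe set peaked at 24 h, and their log2 signals correlated with each other at r = 0.92 to 0.95 across the 9 arrays, which read the same RNA. In bulk RNA, fewer cells of a kind and less RNA per cell cannot be told apart.

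ARRDC3, an alpha-arrestin that directs membrane receptors such as the beta2-adrenergic receptor to ubiquitination, had signals of 465, 1248 and 502 at 0, 24 and 48 h on full-length arrays, 348, 1404 and 573 on truncated arrays, and 573, 1747 and 599 on untreated arrays (probe set 224797_at). ARRDC4, a close relative of TXNIP and also a MondoA target, had 142, 692 and 160.3 on full-length arrays, 128, 820.1 and 177 on truncated arrays, and 160.5, 1325 and 393 on untreated arrays (225283_at). For both genes the 24 h arrays were above all 6 others, and as for TXNIP the order of 24 and 48 h follows from the choice. The untreated arrays of ARRDC4 were the highest at each time. ARRDC2, the remaining alpha-arrestin of the set, had signals of 87.4, 182 and 111 on full-length arrays, 96.4, 127 and 106 on truncated arrays, and 53.2, 142 and 78.7 on untreated arrays (226055_at). Its 24 h arrays too lay above the other 6, the truncated series being the lowest of the 3.

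**Figure D1:**
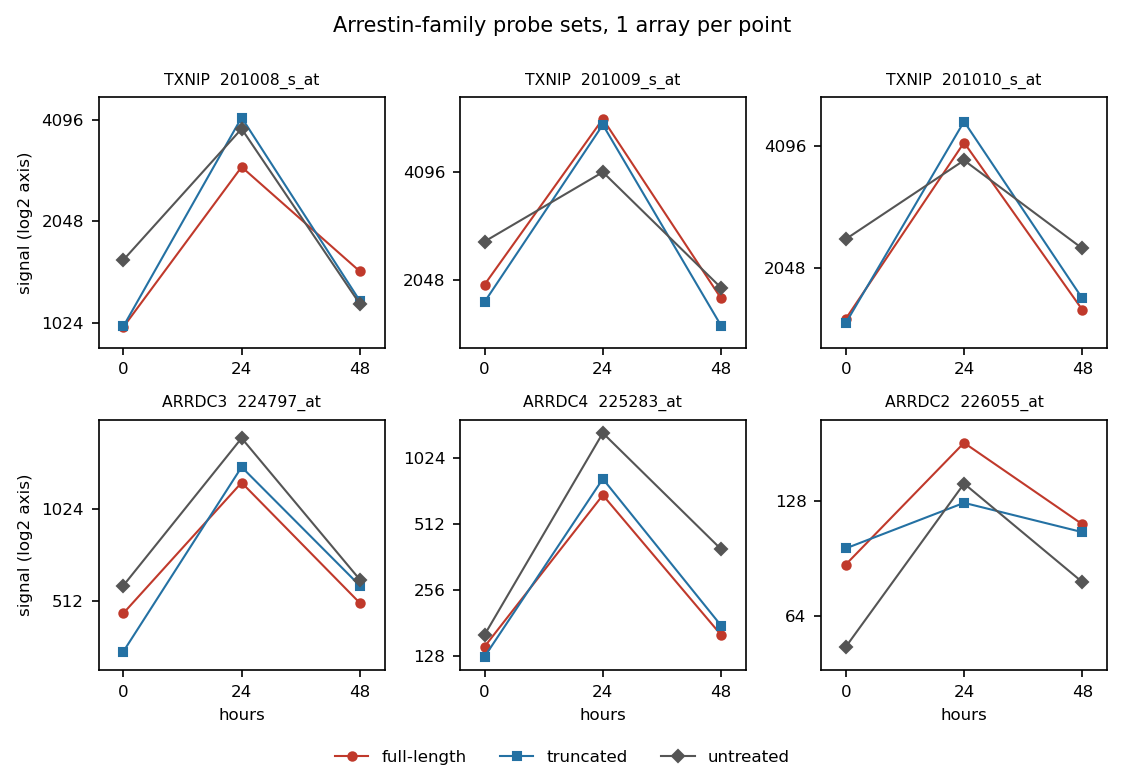
Signal (log2 axis, with its own range in each panel) of the 6 arrestin probe sets at 0, 24 and 48 h, with 1 array per point and a line per series. In every panel the 3 points at 24 h are above the other 6, for example 692 to 1325 at 24 h for ARRDC4 against 128 to 393 at the other times. For TXNIP, ARRDC3 and ARRDC4 the order of 24 and 48 h follows from how the genes were picked.

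The difference by which the genes were chosen, 48 h minus 24 h on the log2 scale, was -1.66 on full-length arrays, -1.86 on truncated arrays and -1.07 on untreated arrays for TXNIP on 201009_s_at. The ARRDC3 values of that difference were -1.31, -1.29 and -1.54 in the same order. For ARRDC4 the differences were -2.11, -2.21 and -1.75, a mean of -2.03 ± 0.24 (SD, n = 3 series), or 4.07-fold lower at 48 h than at 24 h. Across the 3 TXNIP probe sets the mean was between -1.53 and -1.19, and for ARRDC3 it was -1.38 ± 0.14.

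The 6 genes not picked on that contrast varied. The 48 h minus 24 h difference of ARRDC2 was -0.71, -0.25 and -0.86 log2 on full-length arrays, on truncated arrays and on untreated arrays, and the groups did not overlap. SLC2A3 on 202499_s_at gave -1.62, -1.09 and -0.55, also without overlap. By contrast, 3 MLX probe sets (213708_s_at, 217909_s_at and 217910_x_at) had all 48 h arrays above all 24 h arrays, with mean differences of 0.39, 0.47 and 0.54. Over all probe sets, 10.2% had every 48 h array below every 24 h array and 9.22% had the opposite order. These values are descriptions, because the rule used the 48 h and 24 h arrays.

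The later arrays were next set against 0 h. For each series the log2 signals at 24 and 48 h were averaged and the 0 h value was subtracted, a quantity that does not depend on the difference between 24 and 48 h, and limma tested its mean over the 3 series with p-values adjusted over all 26480 probe sets. Of the 20 probe sets, 8 rose and 0 fell; of all probe sets tested, 5.4% rose and 5.14% fell. The median of the 20 was 0.46 log2, against -0.03 over all probe sets. The 8 were all 5 of TXNIP, ARRDC3 and ARRDC4, 1 of the 5 MLX probe sets that passed the filter and 2 of the 3 of SLC2A3. TXNIP, ARRDC3 and ARRDC4 were picked on the same 24 and 48 h arrays that enter the tested mean. Their calls and adjusted p-values may therefore depend on that choice, and so may the count of 8 of 20. Of the 15 probe sets not picked, 3 rose and 0 fell, with a median of 0.34 log2. Their genes were also chosen with earlier results of these data known, so these 15 are not an unselected set. Unadjusted p-values were under 0.05 for 10 of the 20, each with a positive difference, and 5 of these were among the 15 not picked. Over all 26480 probe sets, 6491 had an unadjusted p under 0.05, in either direction.

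The adjusted p-values of ARRDC4, ARRDC3 and TXNIP carry the limit just given, since these genes were picked on arrays that enter the mean. ARRDC4 rose by 1.66 ± 0.19 log2 (SE, 3.16-fold, adjusted p = 0.0002), with 1.23 on full-length arrays, 1.58 on truncated arrays and 2.17 on untreated arrays. ARRDC3 rose by 0.99 ± 0.15 (adjusted p = 0.00125), with 0.77, 1.37 and 0.84 in the same order. The TXNIP probe sets rose by 0.88 ± 0.15 (201008_s_at, adjusted p = 0.00231), 0.66 ± 0.14 (201010_s_at, 0.00955) and 0.51 ± 0.14 (201009_s_at, 0.0373). All 3 series had a positive difference for each of them, but the untreated series gave the smallest, 0.11 to 0.43 against 0.70 to 1.16 with either construct. ARRDC2 had a difference of 0.65 ± 0.27, positive in all 3 series, that did not pass (adjusted p = 0.153).

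Each of the 8 calls was lost without the filter on dim probe sets (lowest adjusted p = 0.118, for ARRDC4) and when limma's variance estimate did not follow the signal level (lowest adjusted p = 0.191, also for ARRDC4). Under each of these settings limma called none of the probe sets tested, while 6491 and 4955 had an unadjusted p under 0.05. The fit over the 3 series had 13.8 total degrees of freedom per probe set, most of them from limma's pooled variance, against 4.02 without the filter and 4.12 without the trend. Without the array of truncated NRSF at 24 h, that series entered by its 48 h array alone (-0.22 from 0 h on 201009_s_at). The quantity then does depend on the difference between 24 and 48 h. In that fit the differences of TXNIP were 0.20 on 201009_s_at (adjusted p = 0.531) and 0.42 on 201010_s_at (0.0903), and both calls were lost. Without the full-length series they were 0.41 (adjusted p = 0.227) and 0.61 (0.054), so neither was called, and without the truncated series the 201009_s_at value was 0.40 (adjusted p = 0.124).

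**Figure D2:**
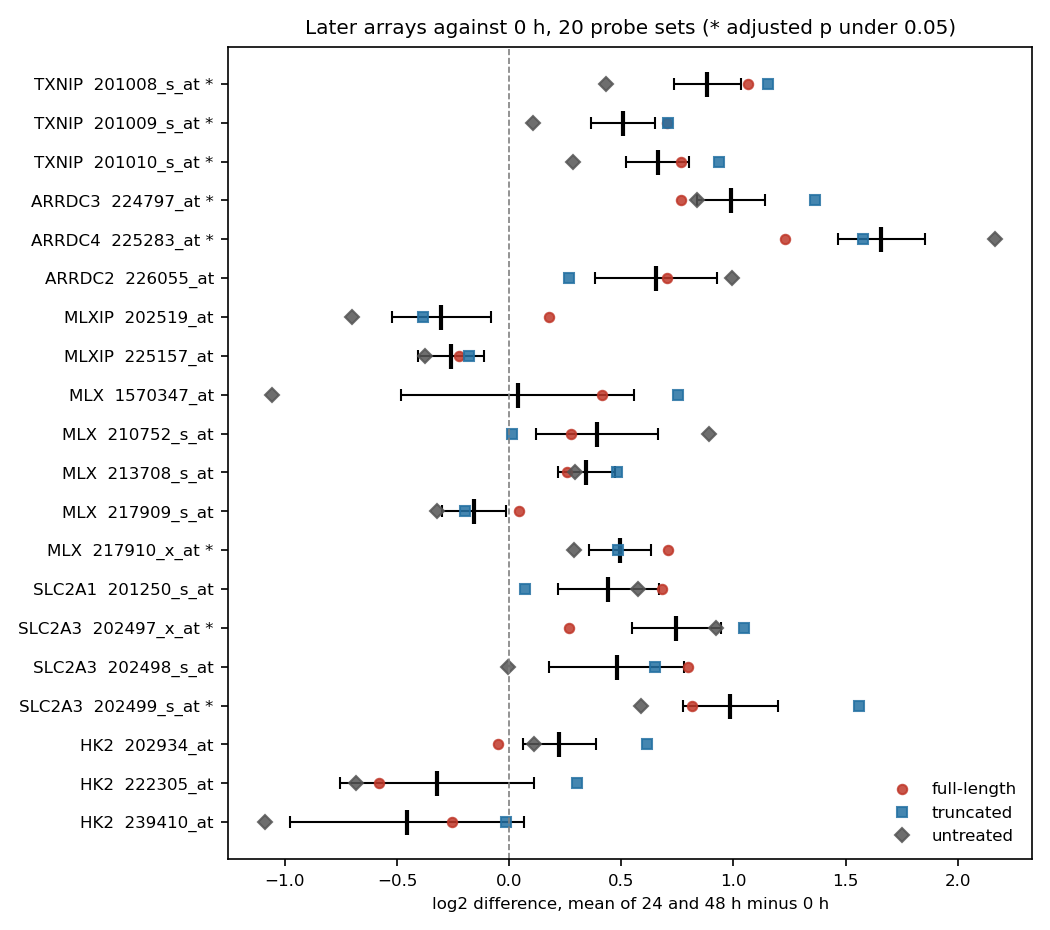
Log2 difference of the mean of 24 and 48 h from 0 h for the 20 probe sets: symbols are the 3 series, the vertical mark is their mean, the bar is its SE from limma, and an asterisk marks an adjusted p under 0.05. All 3 series are right of 0 for TXNIP, ARRDC3, ARRDC4 and ARRDC2, while both MLXIP probe sets have negative means. The asterisks of TXNIP, ARRDC3 and ARRDC4 may depend on how these genes were picked.

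At 24 h alone, TXNIP was higher than at 0 h by 1.26 to 1.64 log2 over its probe sets, ARRDC3 by 1.68 ± 0.30 and ARRDC4 by 2.67 ± 0.38 (SD, n = 3 series), the last a 6.37-fold difference. These 3 genes were picked on the same 24 h arrays, so no p is given. At 48 h TXNIP was between -0.26 and 0.12 from its 0 h level on average, ARRDC3 at 0.30 ± 0.36 and ARRDC4 at 0.65 ± 0.58. The ARRDC4 spread at 48 h came from the untreated series, which was 1.29 above its 0 h value, against 0.18 on full-length arrays and 0.47 on truncated arrays.

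In the same model, with terms for series and time, 3 of the 15 probe sets of the other 6 genes rose at 24 h and 0 fell, against 6.62% up and 6.47% down over all probe sets. SLC2A3 gave 2 of the 3 and ARRDC2 the third, and an unadjusted p under 0.05 was found for 1 of the 15 downward, on MLX 217909_s_at. Over all 26480 probe sets, 6842 had such a p at 24 h, in either direction. ARRDC2 rose by 0.96 ± 0.31 log2 (SE, adjusted p = 0.0469), and this call was lost with quantile normalization, without the filter, without the variance trend and when any 1 series was left out (adjusted p up to 0.272).

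MLXIP encodes MondoA, the glucose-responsive subunit. On 225157_at its signals at 0, 24 and 48 h were 605, 581 and 461 on full-length arrays, 459.7, 408 and 404 on truncated arrays, and 568, 374 and 513 on untreated arrays. On 202519_at they were 195, 239 and 204 on full-length arrays, 194, 119 and 186 on truncated arrays, and 277, 132 and 221 on untreated arrays. The times overlapped on both, and the 24 h array of the untreated series was its lowest. The later mean differed from 0 h by -0.26 ± 0.15 (adjusted p = 0.309) on 225157_at and by -0.30 ± 0.22 (adjusted p = 0.441) on 202519_at. The other 2 MLXIP probe sets did not pass the filter, with signals between 1.30 and 30.7.

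MLX, the common DNA-binding partner of MondoA and its paralogue ChREBP, rose at 48 h on its brightest probe set. On 213708_s_at the signals at 0, 24 and 48 h were 1236, 1371 and 1595 on full-length arrays, 1059, 1321 and 1649.6 on truncated arrays, and 1023, 1007 and 1560.0 on untreated arrays. On 217910_x_at they were 645, 954 and 1162 on full-length arrays, 641, 729 and 1107 on truncated arrays, and 645, 608 and 1020.1 on untreated arrays. In both cases the 48 h arrays were above all 6 others, as on 2.52% of all probe sets. At 48 h against 0 h, 213708_s_at rose by 0.54 ± 0.14 (adjusted p = 0.0317) and 217910_x_at by 0.77 ± 0.16 (adjusted p = 0.00663). These were 2 of the 15 probe sets of the 6 genes, with 0 down, against 3.26% up and 2.96% down over all probe sets. The later mean of 217910_x_at also rose, by 0.49 ± 0.14 (adjusted p = 0.0364), and that of 213708_s_at differed by 0.34 ± 0.13 without passing (adjusted p = 0.105).

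The MLX probe sets did not move alike. On 217909_s_at the signals were 634, 538 and 791 on full-length arrays, 659.9, 468 and 708 on truncated arrays, and 703, 516 and 615 on untreated arrays, and every 24 h array was below every 0 h array. That difference was -0.39 ± 0.16 log2 (adjusted p = 0.121), and such an order occurred in 14.5% of all probe sets. The log2 signals of 217909_s_at correlated with those of 213708_s_at at r = 0.27 over the 9 arrays, against r = 0.94 between 213708_s_at and 217910_x_at. A suffix _x_at marks a probe set whose probes may also bind other transcripts, and among the MLX probe sets it applies to 217910_x_at. The 48 h call of 217910_x_at was lost without the full-length series (adjusted p = 0.070), without the filter (0.071) and without the trend (0.175). That of 213708_s_at was lost when any 1 series was left out, with the mean of probe sets, with quantile normalization, without the filter and without the trend (adjusted p = 0.0522 to 0.235). The later-mean call of 217910_x_at was lost without the full-length series (0.39, adjusted p = 0.298) and without the truncated series (0.50, 0.0511). Signals on 210752_s_at were 78.5 to 243 and on 1570347_at 1.23 to 76.6, the lowest of which was raised to the floor of 8.27, and neither passed a test. The last MLX probe set, 231401_s_at, did not pass the filter, with signals of 2.66 to 29.9.

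PTPRC, a leukocyte marker, was also higher at 48 h than at 0 h (1.05 log2, adjusted p = 0.0422), while the blood markers CD3E and LYZ did not pass the filter. The summed signal of the blood markers ranged from 97.0 to 128 at 0 h, 78.8 to 171 at 24 h and 178 to 202 at 48 h. Their part in the 48 h values of MLX was not tested.

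SLC2A3 encodes GLUT3, a high-affinity glucose transporter of neurons. On 202499_s_at its signals at 0, 24 and 48 h were 155, 479.6 and 156 on full-length arrays, 111, 475 and 223 on truncated arrays, and 198, 359.9 and 246 on untreated arrays. The 24 h arrays lay above the other 6. The gene rose on this probe set by 1.53 ± 0.25 at 24 h (2.89-fold, adjusted p = 4.9e-04), and by 0.99 ± 0.21 in the later mean (adjusted p = 0.00965). The 24 h call was lost in 1 of 9 alternatives, that without the variance trend (adjusted p = 0.068).

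Another SLC2A3 probe set, 202497_x_at, has the _x_at suffix, so its probes may also bind other transcripts. On it SLC2A3 had 215, 271 and 246 on full-length arrays, 164, 338 and 338 on truncated arrays, and 161, 298 and 311 on untreated arrays. Here the 24 h and the 48 h arrays were all above the 0 h arrays (13.8% and 12.1% of all probe sets), and 24 h did not stand above 48 h. It rose by 0.76 ± 0.22 at 24 h (adjusted p = 0.0254) and by 0.74 ± 0.20 in the later mean (adjusted p = 0.0289). The 24 h call was lost without the truncated series (0.61, adjusted p = 0.18), the untreated series (0.69, 0.141), the truncated 24 h array (0.69, 0.111), the filter (0.096) or the trend (0.134). The later-mean call was lost without the truncated series (0.59, adjusted p = 0.103), without the untreated series (0.66, 0.0674) and on the mean of probe sets (0.0608). At 48 h the difference was 0.73 ± 0.22 (adjusted p = 0.0511), and it passed in 5 of 11 alternatives. On 202498_s_at the signals were 53.3, 109.6 and 78.4 on full-length arrays, 76.9, 133 and 109 on truncated arrays, and 83.8, 97.3 and 71.4 on untreated arrays. Its 24 h values were above all 0 h values, but no test was passed (adjusted p = 0.207 at 24 h).

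SLC2A3 is nearly identical to SLC2A14, so its values are uncertain as to the gene. The 2 probe sets that name both genes were not assigned to either. Their signals at 0, 24 and 48 h were 109.7, 169.6 and 155 on 216236_s_at and 87.5, 257 and 195 on 222088_s_at on full-length arrays. With truncated NRSF they were 148, 282 and 189.7, and 98.9, 224 and 130.3 in the same order. Untreated cells had 152, 207 and 204, and 147, 269.6 and 148. In all 3 series both probe sets had their highest signal at 24 h.

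SLC2A1 encodes GLUT1, the widespread basal glucose transporter. On 201250_s_at its signals were 112, 199 and 162 on full-length arrays, 162, 149 and 194 on truncated arrays, and 116, 170.3 and 174 on untreated arrays. The times overlapped, and the truncated array at 0 h was at 162. The differences were 0.42 ± 0.26 at 24 h (adjusted p = 0.325), 0.46 ± 0.26 at 48 h (0.335) and 0.44 ± 0.23 in the later mean (0.251). Its other probe set, 201249_at, did not pass the filter, with signals of 1.98 to 31.3.

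HK2, the inducible hexokinase that traps glucose in the cell, did not pass any test. On 202934_at its signals were 433, 429.7 and 406 on full-length arrays, 394, 589 and 618 on truncated arrays, and 614, 563 and 780.4 on untreated arrays. The 3 series thus ran in different directions at 24 h, with log2 differences of -0.01, 0.58 and -0.13. The later mean was 0.22 ± 0.16 above 0 h (adjusted p = 0.436). On 222305_at and 239410_at the signals ranged from 14.2 to 99.3 and from 16.3 to 71.8, and the times overlapped.

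**Figure D3:**
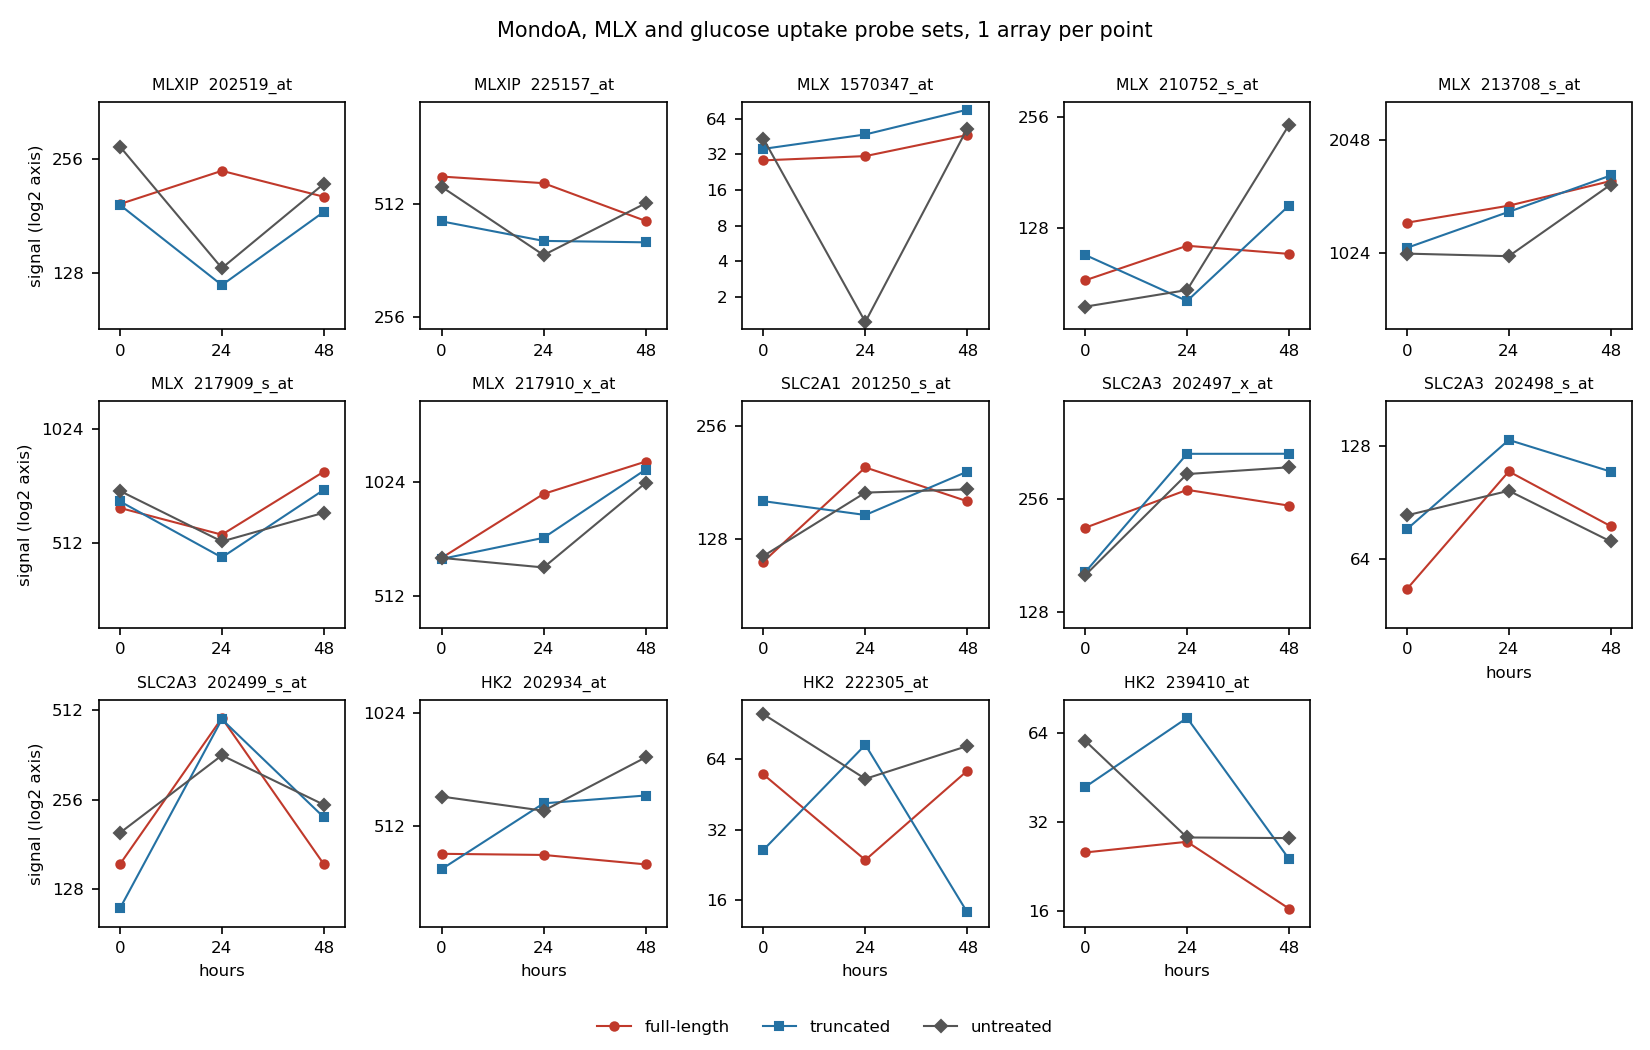
Signal (log2 axis, with its own range in each panel) of the 14 probe sets of MLXIP, MLX, SLC2A1, SLC2A3 and HK2 that passed the filter, at 0, 24 and 48 h, with 1 array per point and a line per series. The peak at 24 h on SLC2A3 202499_s_at (359.9 to 479.6) and the highest values at 48 h on MLX 213708_s_at (1560.0 to 1649.6) stand out from the overlapping times of SLC2A1 and HK2.

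The constructs were compared with untreated cells through the change from 0 h, taking 24 and 48 h as repeated readings. None of the 15 probe sets of the 6 genes passed in limma for either construct or between them, and 0 of the 15 had an unadjusted p under 0.05 in any of the 3 comparisons. Over all probe sets the share called was 0.0% for full-length against untreated, 0.00755% for truncated against untreated and 0.0% for full-length against truncated, with 1059, 1727 and 1525 probe sets at an unadjusted p under 0.05. The lowest adjusted p among the 15 was 0.798, for SLC2A3 202499_s_at in the truncated against the untreated series (0.97 ± 0.50). With 2 residual degrees of freedom in the design, these comparisons leave wide errors, between 0.31 and 1.33 log2 for the members. The same fit called none of the changes put into simulated data, the largest included, so the lack of calls does not show that the constructs acted alike on these genes.

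For the 3 genes picked on their time course the same quantity is given without a test. The change of TXNIP from 0 h, less that of the untreated series, was 0.48 to 0.63 on full-length arrays and 0.60 to 0.73 on truncated arrays over its probe sets. The 0 h array of untreated cells was the highest of the 3 for TXNIP, and this value enters both differences. ARRDC4 had the opposite sign, at -0.94 on full-length arrays and -0.59 on truncated arrays, and ARRDC3 was at -0.07 and 0.53. Both comparisons share the untreated arrays, and the errors of these values were 0.33 to 0.41 log2.

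Other genes of the pathway were read from 5 lists, on the brightest probe set of each gene and in the later mean. Of the brightest probe sets of all 13799 genes kept, 6.3% rose and 6.01% fell in that test, the shares beside which the counts of calls below stand. The counts at an unadjusted p under 0.05 stand beside 6491 of all 26480 probe sets in the same fit, in either direction. Without the filter, or without the variance trend, the later mean gave 0 calls, so every call from these lists is lost there. In the MAX and MLX network 7 of 10 genes were kept, of which 2 rose and 0 fell (4 and 1 at an unadjusted p under 0.05 in limma), with a median of 0.35. MXD1, which pairs with MAX to repress MYC targets, had a signal of 82.8 ± 25.1 at 0 h, 608 ± 31.3 at 24 h and 372 ± 67.8 at 48 h (mean ± SD, n = 3 series), and rose by 2.56 ± 0.19 log2 (SE, adjusted p = 4.35e-06). MAX itself rose by 0.50 ± 0.14 (adjusted p = 0.0369). MLXIPL, which encodes ChREBP, did not pass the filter, and 8 of its 9 arrays were at the floor. Of the other arrestins 2 of 4 were kept (ARRDC1 and ARRB1), and in limma 0 rose or fell, also at an unadjusted p under 0.05, with a median of 0.22.

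Of the thioredoxin system and TXNIP partners 11 of 13 were kept, of which 2 rose and 1 fell, with a median of 0.12. TXNRD1, the cytosolic thioredoxin reductase, rose by 0.58 ± 0.13 (adjusted p = 0.0126). SRXN1, which repairs over-oxidised peroxiredoxins, rose by 0.59 ± 0.13 (adjusted p = 0.0102). PRDX2, a peroxiredoxin fed by thioredoxin, fell by 0.49 on the log2 scale (SE 0.13, adjusted p = 0.0264).

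All 9 NEDD4-family ligases were kept, and 1 rose and 1 fell, with a median of 0.04. ITCH, which ubiquitinates TXNIP and is read here by an _x_at probe set, had 262 ± 9.28 at 0 h, 448 ± 18.5 at 24 h and 424 ± 18.3 at 48 h, and rose by 0.74 ± 0.16 (adjusted p = 0.00929). WWP1, which alpha-arrestins can bind, fell by 0.50 (SE 0.13, adjusted p = 0.0293). Among other glucose transport and sugar phosphorylation genes 15 of 21 were kept, of which 0 rose and 2 fell (1 and 4 at an unadjusted p under 0.05 in limma), with a median of -0.11. SLC2A10 fell by 0.87 (SE 0.19, adjusted p = 0.00995) and SLC2A13, a proton-coupled myo-inositol transporter, fell by 0.95 (SE 0.24, adjusted p = 0.0241).

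**Figure D4:**
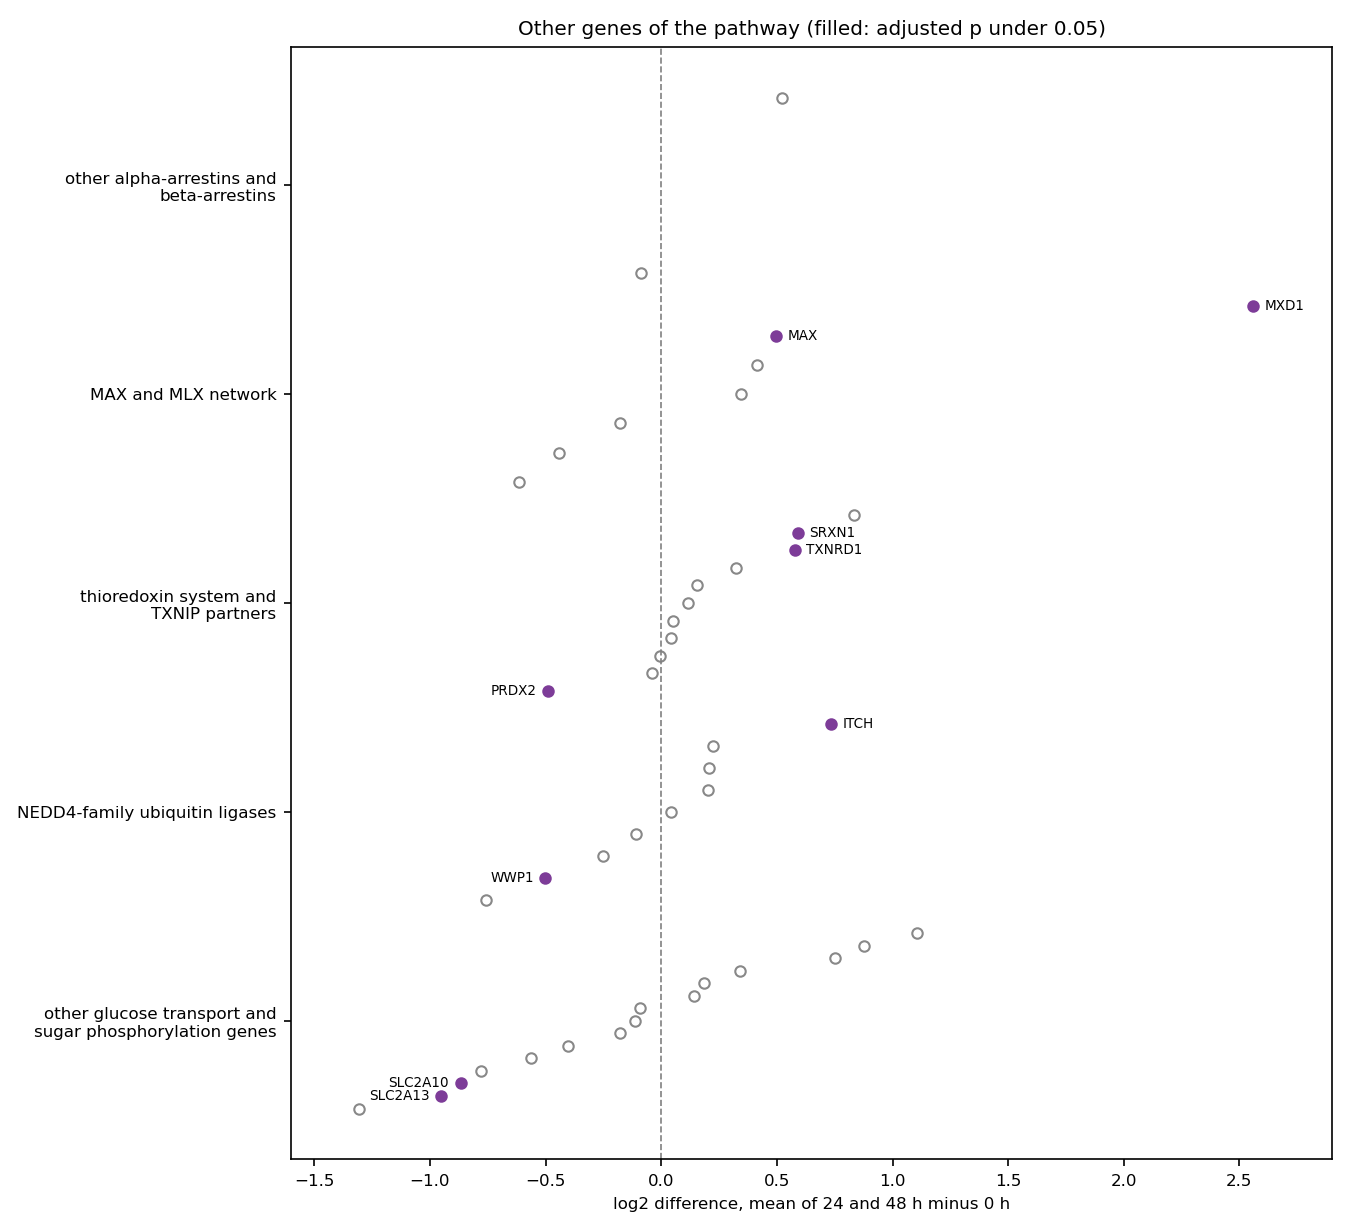
Log2 difference of the mean of 24 and 48 h from 0 h (x axis) for the brightest probe set of each kept gene in 5 pathway lists (rows, points spread vertically by rank within a list). Filled points have an adjusted p under 0.05: MXD1 is farthest from 0 at 2.56, and the others lie between -0.95 and 0.74.

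The genes whose log2 signal was most like that of TXNIP 201009_s_at over the 9 arrays, among 9011 genes with a range of at least 1 log2, were PARP12 (Pearson r = 0.99), WEE1, KLF9, CHD7 and MAPK6 (each 0.98). KLF9, a zinc-finger transcription factor, had signals of 156, 349 and 152 at 0, 24 and 48 h on full-length arrays, 123, 356 and 135 on truncated arrays, and 223, 296 and 170.2 on untreated arrays. Like TXNIP, each of the 5 had its highest 0 h signal on the untreated array, and r over the 6 arrays at 0 and 48 h was 0.89 to 0.96. These 6 arrays were among the 9 by which the 5 genes were ranked, so this is no separate support. The most opposed were ETNPPL and MTUS1 (-0.97), ABCA1 and VPS51 (-0.96) and SNRNP25 (-0.95). ABCA1, the cholesterol exporter, had 473, 218 and 483 on full-length arrays, 516, 192 and 466 on truncated arrays, and 341, 201 and 439 on untreated arrays. ARRDC3 ranked 67 (r = 0.88), ARRDC4 ranked 151 (0.83), ARRDC2 ranked 1031 (0.58) and SLC2A3, on 202497_x_at, ranked 2749 (0.30). ARRDC3 and ARRDC4 had been picked for a fall from 24 to 48 h shared with TXNIP, and that fall enters r. All values come from the same 9 arrays, so the ranking is a description of these arrays.

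ACTB signal at the 3' end divided by that at the 5' end, a sign of RNA quality, was 2.25 to 4.19 at 0 h, 2.45 to 3.63 at 24 h and 2.49 to 3.47 at 48 h. Of 8 adrenergic neuroblastoma markers 5 were kept, GATA3 among them, and in limma 0 rose or fell in the later mean, also at an unadjusted p under 0.05, and the noradrenaline synthesis genes TH and DBH did not pass the filter. All 7 mesenchymal markers were kept: SNAI2 rose by 1.11 ± 0.14 (adjusted p = 0.00029), FN1 fell by 1.37 (0.000112) and PRRX1 fell by 0.61 (0.00871). These calls too are lost without the filter or without the variance trend. The summed signal of the 7 markers was 22932 to 26175 at 0 h, 18442 to 20898 at 24 h and 21181 to 25129 at 48 h. Of the epithelial markers 0 of 4 and of the endothelial markers 1 of 4 passed the filter. The part of these values in the 24 h signals of the arrestins was not tested.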

How the data were processed

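RNA of SK-N-AS cells was hybridised to Affymetrix arrays, 1 array for each of 3 series (full-length NRSF, truncated NRSF, untreated) at 0, 24 and 48 h. The values deposited by the authors are linear signal intensities; the submitters' processing notes name GCOS, the Affymetrix software, and each array has the same trimmed mean. No build or version is given in the sources used here. Members and lists were chosen with earlier results of these data known.

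Of 54675 probe sets, 62 controls and the probe sets naming no gene or several (1801) were left out, and 41091 naming 1 gene remained (41043 with the symbol updated through the Entrez ID). Signals under the 25th percentile of all values (8.27) were set to it and log2 was taken. Probe sets with a mean above the 40th percentile (log2 4.20) were kept: 26480, of 13799 genes. Levels of different probe sets were not compared, and the number of arrays limits the precision.

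limma 3.58.1 (R 4.3.3) with a mean-variance trend gave two-sided p-values, adjusted by Benjamini-Hochberg over all probe sets kept; a call is an adjusted p under 0.05. The mean of 24 and 48 h was tested against 0 h over the 3 series; single times used terms for series and time (4 residual degrees of freedom), and constructs were added as terms (2 residual degrees). Nothing in the labels says that the series came from separate cultures started independently, so the p-values rest on the spread among these arrays alone, which may be technical. The design text speaks of triplicate samples and 3 batches, but the labels tie no array to either. On simulated data with known changes, the time comparisons called few of the small changes and most, though not all, of the largest, and the construct comparisons called none of any size. All probe sets of the 9 genes were named; from each pathway list all calls of the later mean up to 4, else the 2 largest changes; and the 5 genes most and least like TXNIP. Alternatives changed the probe set of a gene, the normalization, the floor, the filter, the variance trend and the arrays used.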

Additional observations from a re-analysis of the deposited data

How the results depend on the processing

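Over all probe sets, the mean of 24 and 48 h against 0 h gave 2793 calls. With 1 value per gene the count was 1726 on the brightest probe set and 663 on the mean of probe sets, and it was 0 without the filter and 0 without the variance trend. The unfiltered fit includes 514 probe sets at the floor on all 9 arrays, which have no variance; 6491 probe sets had an unadjusted p under 0.05 both with and without the filter, of which 5078 were shared. The 24 h comparison gave 3466 calls, and 2242, 1213, 1462 and 446 in the same order, with 2078 without the truncated 24 h array. For 48 h against 0 h there were 1647 calls, 477 on the mean of probe sets, 238 without the filter and 2 without the trend. For 48 h against 24 h there were 697 calls, 175 on the mean of probe sets, 0 without the filter, 0 without the trend and 238 without the truncated 24 h array. Leaving out 1 series gave 1275 to 2805, 1682 to 2263, 509 to 778 and 198 to 277 calls in these 4 comparisons, in the order given. The 2805 calls came without the untreated series, in a fit with 26480 total degrees of freedom, against 13.8 in the main fit. Its variance was taken from limma's pooled estimate, so that count is not a like measure beside 2793. For the constructs, the brightest probe sets gave 1 call (full-length against untreated), 5 (truncated against untreated) and 2 (full-length against truncated). The truncated comparison, with 2 calls, had 1 under quantile normalization and 0 under the mean of probe sets, the higher floor, the stricter filter, no filter and no trend. The cause of these shifts was not tested, other than that fewer values enter per gene and fewer arrays in the reduced fits.

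Among the members, 19 of 95 tested results, none past the threshold, changed sign under at least 1 alternative (24 of 741 values). Of 45 results given without a test 7 did (15 of 391 values): TXNIP at 48 h against 0 h, on 201008_s_at (-0.091 without the full-length series) and 201010_s_at (-0.00716 with quantile normalization), and at 48 h against 24 h SLC2A1 201250_s_at, SLC2A3 202497_x_at, HK2 202934_at and 222305_at (0.86 without the truncated series) and MLXIP 225157_at. On the mean of probe sets HK2 was at -0.18 in the later mean, -0.043 at 24 h, -0.32 at 48 h and 0.26 for full-length against untreated. In that setting SLC2A1 was at -0.11 at 24 h and 0.79 for truncated against untreated. SLC2A3 was at 0.12 and MLX at 0.27 for full-length against untreated. MLXIP was at 0.33 for full-length against truncated and -0.13 for truncated against untreated. Quantile normalization gave 0.058 (MLX 1570347_at) and 0.071 (HK2 239410_at) for full-length against truncated, and -0.00514 for MLX 210752_s_at at 24 h. When 1 series was left out, the 24 h difference ranged from -1.14 to 0.26 (MLX 1570347_at), -0.068 to 0.29 (HK2 202934_at), -0.13 to 0.23 (MLX 210752_s_at), -1.06 to 0.29 (HK2 222305_at) and -0.48 to 0.45 (HK2 239410_at). The 48 h difference then ranged from -0.20 to 0.0015 (MLXIP 202519_at) and -0.046 to 0.21 (MLX 217909_s_at), and the later mean of MLX 1570347_at from -0.32 to 0.58. The dim probe sets and the single array per series and time limit what can be seen of these members.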
